A study of Mus musculus with 4 samples.

Results

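The genes described here are receptors, ligands and repair factors that colonic epithelium uses to close a wound: the epidermal growth factor receptor Egfr, its ligands Ereg, Areg, Hbegf and Tgfa, and the injury response genes F3, Plaur, Clu, Anxa1 and Ly6a. They were taken by their gene symbol in the annotation of the Affymetrix Mouse430_2 array. Of the 10 genes, 8 had a probe set under their symbol, 21 probe sets in all, out of 18193 named genes and 45037 probe sets on the array. Areg and Ly6a had none in the annotation used here and were not analysed here. All 8 genes had at least 1 array at or above a floor of 33.4 intensity units, the median over every probe set and array.

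Colonic epithelial cells were compared between 4 genotypes on a C57BL/6 background, with 1 array each: DKO (Bmi1ΔIEC Mel18ΔIEC), Bmi1ΔIEC, Mel18ΔIEC and WT. Bmi1 and Mel18 (gene symbol Pcgf2) are related subunits of Polycomb repressive complex 1, which keeps developmental genes silent, and the labels name a deletion in intestinal epithelial cells. The sources used here do not name the Cre line behind it. Sex-matched mice of 6 to 8 weeks, WT included, had been injected with 10 mg/kg azoxymethane, a colon carcinogen, and 5 days later drank 3.5% dextran sulfate sodium, which strips the colonic epithelium, for 5 days. Cells were released from the colon with EDTA on day 12, and no sorting step is described. How many mice went into an array is not stated. The series text puts a number after each genotype without saying what it counts.

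Epidermal growth factor receptor ligands are made as membrane-bound precursors, are cut free by ADAM proteases and drive the proliferation and migration of epithelial cells through ERK. After colitis the surviving crypt cells pass through a fetal-like state that depends on the transcriptional co-activator YAP, and Ly6a, Clu and Anxa1 are used as its markers in mice. Tissue factor (F3) starts blood coagulation at a wound, and Plaur, the urokinase receptor, focuses plasmin activity at the edge of migrating cells.

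With 1 array for each genotype there was no replicate, so no difference below has a replicate check and no test was possible. Values are intensities made by the authors with RMA, on a linear scale, and differences are between log2 intensities. A gene is called higher or lower where it differed at least 2-fold (1 on the log2 scale) and its higher value reached the floor. Where the lower value was under the floor, the size of a difference is not exact. A gene with several probe sets is represented by the one with the highest mean log2 intensity over the 4 arrays. In a preparation of many cells, fewer cells of a type and less RNA per cell cannot be told apart. The targeted genes did not check the labels. Bmi1 read 432, 334, 159.6 and 116 on the arrays labelled DKO, Bmi1ΔIEC, Mel18ΔIEC and WT, so it was brighter where its loss is labelled, and its second probe set ran the same way. Pcgf2 read 31.96, 33.4, 39.8 and 30.2, near the floor throughout. The places of the probes relative to the deleted exons are not given, and each array goes by its label here. All 9 epithelial markers, among them Epcam and Krt8, were above the floor on every array.

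Promoter sequences are shown for F3 and Plaur, which were called higher on the array labelled DKO than on the array labelled WT and have a RefSeq promoter window in the table used here. Each window runs from 250 bases before to 50 bases after the gene's start in assembly GRCm38.p6, on the plus strand, chr3:121723287-121723586 for F3 and chr7:24462233-24462532 for Plaur. Capitals mark every match to TGANTCA, the recognition sequence of AP-1, the Fos and Jun factor that ERK signalling activates.
F3: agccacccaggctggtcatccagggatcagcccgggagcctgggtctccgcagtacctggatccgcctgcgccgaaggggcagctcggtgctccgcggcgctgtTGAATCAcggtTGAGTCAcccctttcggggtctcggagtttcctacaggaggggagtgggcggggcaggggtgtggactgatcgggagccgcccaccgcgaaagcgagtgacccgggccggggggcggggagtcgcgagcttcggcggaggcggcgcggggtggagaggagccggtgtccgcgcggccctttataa
Plaur: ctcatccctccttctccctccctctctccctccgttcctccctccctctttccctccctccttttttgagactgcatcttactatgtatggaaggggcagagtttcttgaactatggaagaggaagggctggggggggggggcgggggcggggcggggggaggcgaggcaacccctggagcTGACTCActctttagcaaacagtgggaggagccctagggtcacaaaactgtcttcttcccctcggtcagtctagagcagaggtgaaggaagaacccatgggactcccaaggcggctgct
The F3 window holds 2 matches, which begin 146 and 135 bases before the start, and the Plaur window holds 1, which begins 69 bases before it. TGANTCA reads the same on both strands. It occurred in 7.81% of the 32851 promoter windows of this length, and 0.46% held at least 2 matches. Windows were searched for 6 of the listed genes, and those of Egfr, Areg, Tgfa and Anxa1 held no match. The search of the listed genes left out windows on the chromosome of Hbegf. GGAATG, the core bound by the TEAD partners of YAP, was searched on both strands and occurred in 14.7% of all windows. Among these 6 it was found in that of Anxa1 alone, beginning 236 bases before the start. A match is a run of letters and does not show binding.

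Between the arrays labelled DKO and WT, 3 of the 8 genes were called higher and none lower. The genes were the ligand Ereg, tissue factor F3 and the urokinase receptor Plaur. Ereg was under the floor on WT, so it could be tested here only as higher on DKO. By the same rule 2.13% of the 11853 genes tested were called higher, and 2.19% lower. The 8 genes were chosen with earlier results of these data known, so setting them beside all genes is not a test. The median difference of the 8 genes was 0.73, against -0.01 over all genes tested. Counted by probe set, 6 of the 17 that could be tested were higher, against 2.06% of all probe sets, because 3 of the 4 Clu probe sets also passed. On the arrays labelled Bmi1ΔIEC and Mel18ΔIEC none of the 7 genes that could be tested against WT was called. Probe sets were called in part. Of 15 tested on Bmi1ΔIEC 2 were lower, against 5.44% of all probe sets, and of 16 tested on Mel18ΔIEC 1 was higher and 1 lower, against 2.91% and 2.63%. Among all genes, on the first of these arrays 5.76% of all genes tested were called higher and 2.86% lower, and on the second 3.15% were called higher and 2.5% lower. The median of the 7 genes was -0.07 on the Bmi1ΔIEC-labelled array, against 0.13 over all genes, and -0.01 on the Mel18ΔIEC-labelled array, against 0.07. These comparisons share the WT array.

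**Figure D1:**
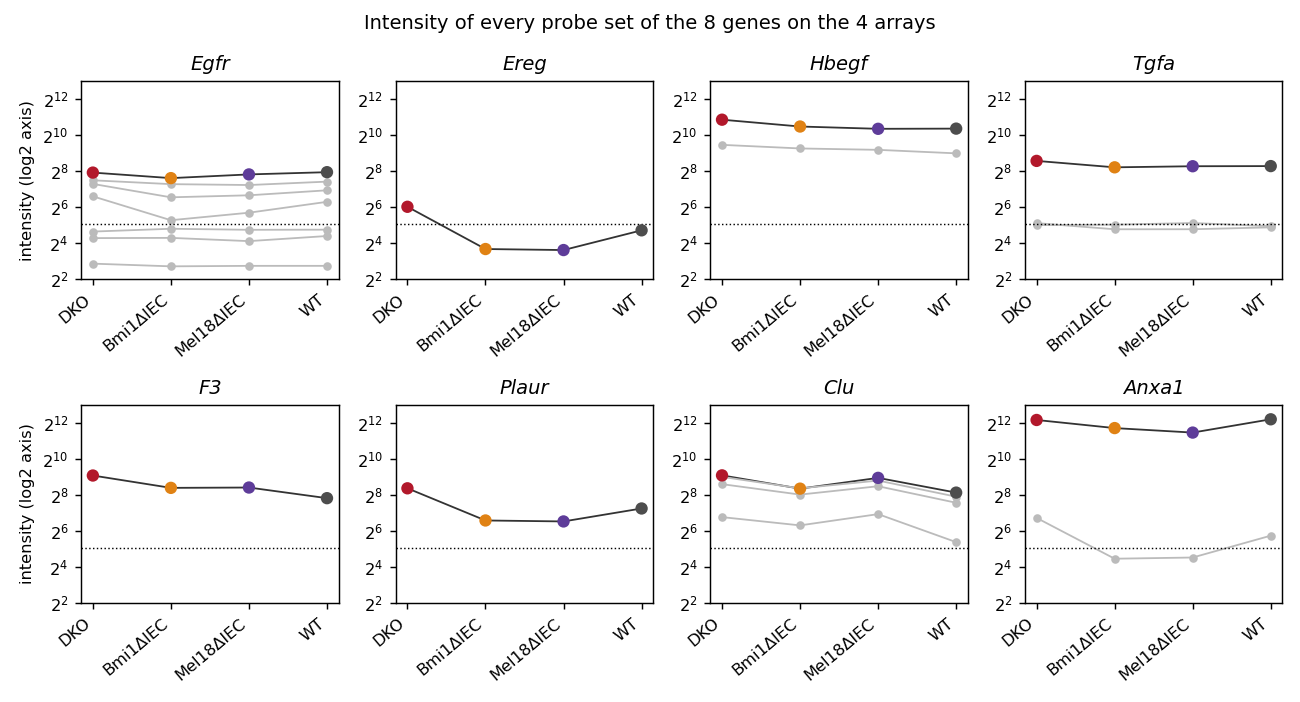
Intensity of every probe set of the 8 genes (log2 axis) on the 4 arrays, 1 point per array. Coloured points are the brightest probe set of the gene, grey points the others, lines join the points of a probe set, and the dotted line is the floor of 33.4. Ereg reads 65.2 on the array labelled DKO and lies under the floor on the other 3 arrays, and Plaur reads 329.8 there, above every other array.

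Egfr, the receptor shared by the ligands, differed little by its brightest probe set. It read 243 on the array labelled DKO, 196 on Bmi1ΔIEC, 226 on Mel18ΔIEC and 246 on WT. The DKO and WT arrays were thus nearly level, with a difference of -0.02, and both single-knockout arrays were lower, at -0.33 and -0.12. Its 7 probe sets did not move alike. Of the 4 that reached the floor, 1432647_at read 97.4 on the array labelled DKO, 38.9 on Bmi1ΔIEC, 51.9 on Mel18ΔIEC and 78.8 on WT. This probe set was 2-fold lower on the Bmi1ΔIEC-labelled array than on WT (-1.02), whereas the other 3 lay between -0.39 and -0.14. The remaining 3 Egfr probe sets were under the floor on all 4 arrays.

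Ereg encodes epiregulin, a ligand of low affinity and long action that is induced in injured colon. Its single probe set read 65.2 on the array labelled DKO, 12.8 on Bmi1ΔIEC, 12.4 on Mel18ΔIEC and 26.4 on WT. It lay above the floor on the DKO-labelled array and under it on the other 3. The difference of DKO from WT was 1.30, a place of 151 among the 11853 genes tested, counted from the highest. The WT value is under the floor, so the size of this difference rests on background signal, and against the floor itself the DKO value was 1.95-fold higher. DKO exceeded Bmi1ΔIEC by 2.34 and Mel18ΔIEC by 2.40. The single-knockout values lay 1.04 and 1.09 below WT on the log2 scale, but no array of either pair reached the floor and neither was called.

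Hbegf and Tgfa stayed within 2-fold on every array. Hbegf, which encodes heparin-binding EGF-like growth factor, read 1854 on the array labelled DKO, 1426 on Bmi1ΔIEC, 1306 on Mel18ΔIEC and 1315 on WT. The DKO array was the highest and the other 3 were close together. Its difference from WT was 0.50 there, with 0.47 from the second probe set, and 0.12 and -0.01 on the single-knockout arrays. Tgfa, which encodes transforming growth factor alpha, read 380.3 on the array labelled DKO, 297 on Bmi1ΔIEC, 309.7 on Mel18ΔIEC and 311 on WT, again with DKO highest at 0.29 above WT. The other 2 Tgfa probe sets lay around the floor, between 27.5 and 34.9. The signs of the small single-knockout differences of both genes changed with the scaling of the arrays.

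F3 was brighter than WT on all 3 knockout arrays, as was Clu. F3 read 539 on the array labelled DKO, 335 on Bmi1ΔIEC, 339.8 on Mel18ΔIEC and 226 on WT. Both single-knockout arrays were nearly level with each other, and DKO stood above them. The differences from WT were 1.26, 0.57 and 0.59, of which the first was called. The F3 value of the DKO-labelled array was 0.68 above Bmi1ΔIEC and 0.67 above Mel18ΔIEC, under the 2-fold rule. In log2 terms the difference of DKO from WT exceeded the sum of both single-knockout differences by 0.09. This excess changed with scaling. It was -0.05 with arrays centred on their median, 0.49 when centred on genes reaching the floor, and 0.31 with quantile normalisation.

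Plaur had another order. It read 329.8 on the array labelled DKO, 95.8 on Bmi1ΔIEC, 92.3 on Mel18ΔIEC and 152 on WT. Both single-knockout arrays were below WT and the DKO array was above it, all 4 values clear of the floor. The difference of DKO from WT was 1.12, and those of Bmi1ΔIEC and Mel18ΔIEC were -0.67 and -0.72, under the 2-fold rule. DKO exceeded the single-knockout arrays by 1.78 and 1.84, and 1.39% and 1.03% of the genes tested lay as high or higher in these comparisons. Its DKO difference exceeded the sum of both single-knockout differences by 2.50, an excess of at least 1 being found for 8.7% of genes. Plaur rests on 1 probe set, of a type that matches several transcripts of a gene.

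Clu encodes clusterin, a secreted chaperone that marks the revival stem cells seen after intestinal injury in mice. Its brightest probe set read 542 on the array labelled DKO, 326 on Bmi1ΔIEC, 493 on Mel18ΔIEC and 279.5 on WT. DKO and Mel18ΔIEC were the upper pair, and Bmi1ΔIEC lay closer to WT. The differences from WT were 0.96, 0.22 and 0.82, none of them called, although the first missed the rule narrowly. Over the 4 Clu probe sets the difference of DKO from WT ran from 0.96 to 1.39, with 3 called. That of Mel18ΔIEC from WT ran from 0.82 to 1.55, with 1 called, and that of Bmi1ΔIEC ran from 0.22 to 0.93, with none called. All 4 probe sets placed Bmi1ΔIEC below Mel18ΔIEC, by 0.43 to 0.62. All 4 are of types that can match several transcripts, so they are not separate checks of Clu.

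Anxa1 encodes annexin A1, a phospholipid-binding protein that signals resolution of inflammation and epithelial repair through formyl peptide receptors. Its brighter probe set read 4559 on the array labelled DKO, 3339 on Bmi1ΔIEC, 2809 on Mel18ΔIEC and 4680.1 on WT. DKO and WT were level and both single-knockout arrays were lower, at -0.49 and -0.74. The dimmer probe set, 1444016_at, read 106 on the array labelled DKO, 22.02 on Bmi1ΔIEC, 23.1 on Mel18ΔIEC and 53.4 on WT. By it, both single-knockout arrays were called lower than WT, at -1.28 and -1.21, and DKO lay 0.99 above WT. Both single-knockout values of this probe set are under the floor, so these sizes are not exact. The 2 probe sets therefore disagree on DKO against WT and share the order of the single-knockout arrays below WT.

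**Figure D2:**
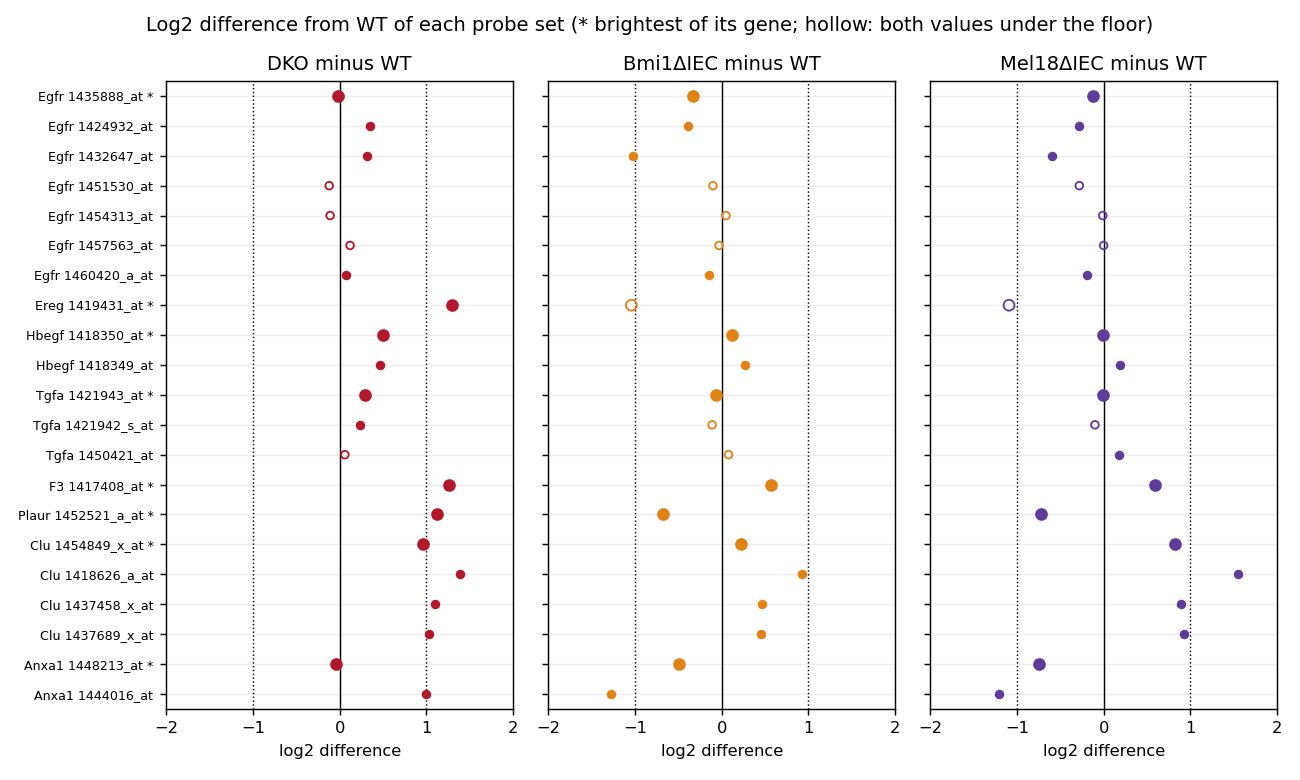
Log2 difference from the array labelled WT of each of the 21 probe sets, for the arrays labelled DKO, Bmi1ΔIEC and Mel18ΔIEC. Large points, with an asterisk at the name, are the brightest probe set of a gene, hollow points have both values under the floor, and dotted lines mark a 2-fold difference. On the DKO-labelled array 6 filled points lie beyond 1 and none beyond -1, and all 4 Clu probe sets lie between 0.96 and 1.39.

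The array labelled DKO was the highest of the 4 for 6 of the 8 genes, whereas it was the highest for 23.2% of the 12154 genes at or above the floor. Egfr and Anxa1 were the exceptions, with WT highest. Ereg reached the floor on the DKO-labelled array alone, so as a gene at the floor it could be highest only there. No gene of the 8 was lowest on the DKO-labelled array. The array labelled Mel18ΔIEC was the lowest for 4 genes, and Bmi1ΔIEC and WT for 2 each. Over all genes at or above the floor, the lowest array was DKO for 35.2%, Mel18ΔIEC for 14.6%, Bmi1ΔIEC for 23.1% and WT for 27.2%. With 1 array each, there is no spread by which to say which neighbours in such an order differ.

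**Figure D3:**
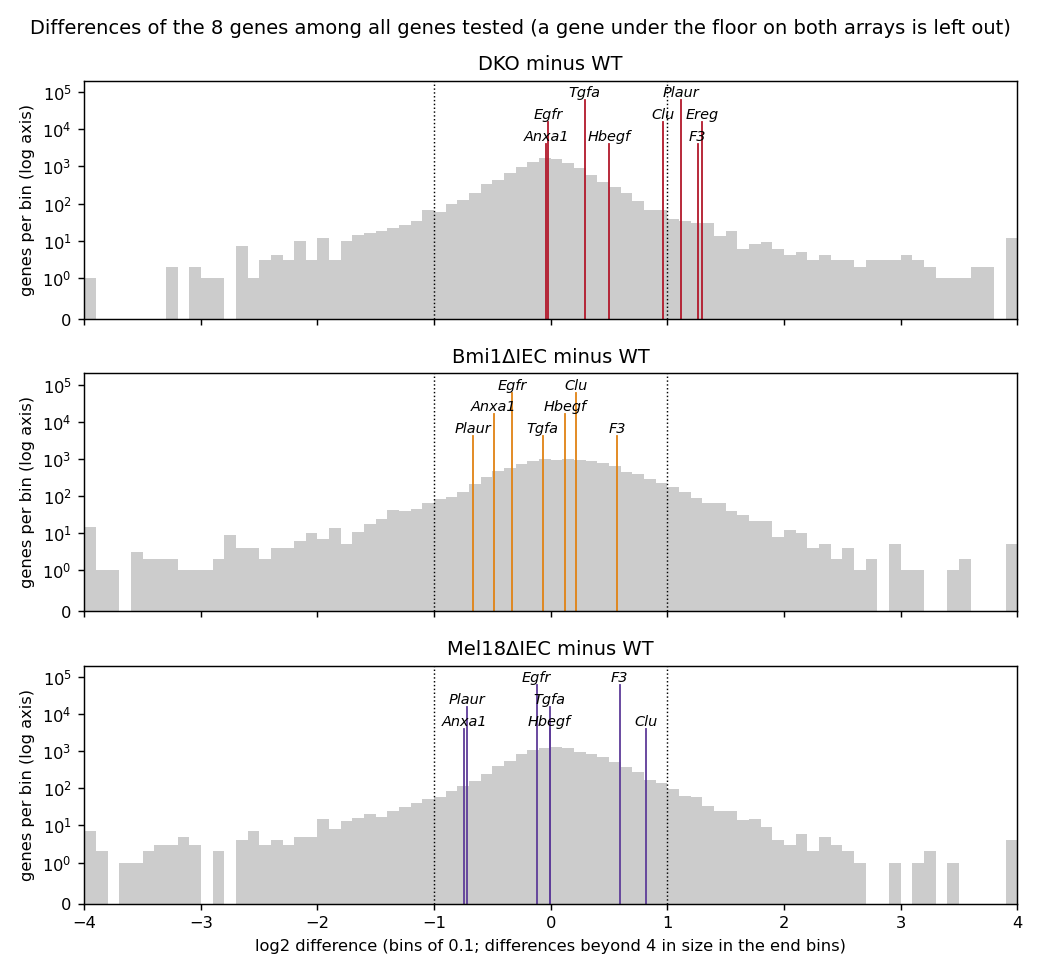
Number of genes (log axis) by log2 difference from the array labelled WT, for all genes tested on the arrays labelled DKO, Bmi1ΔIEC and Mel18ΔIEC, with coloured lines at the genes described and dotted lines at 2-fold. Ereg has no line for the single-knockout arrays, where both values are under the floor. Line heights only separate the names. Ereg at 1.30, F3 at 1.26, Plaur at 1.12 and Clu at 0.96 lie in the upper tail for DKO, and Plaur at -0.67 and Anxa1 at -0.49 lie on the lower side for Bmi1ΔIEC.

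Loss of 1 gene on the background of the other was read from DKO against each single-knockout array, a pair of comparisons that use no WT array. They share the DKO array, so they are not independent of each other. Ereg and Plaur were called higher in both, and no gene of the 8 was called lower. Of all genes tested, 4.3% were called higher and 7.96% lower for DKO against Bmi1ΔIEC, and 3.84% and 4.53% for DKO against Mel18ΔIEC. All 8 differences were above 0 in each comparison, from 0.31 to 2.34 against Bmi1ΔIEC and from 0.10 to 2.40 against Mel18ΔIEC. Ereg, which gave both upper values, reached the floor on the DKO-labelled array alone, so it could be tested here only as higher on DKO. The share of all genes above 0 is not given here. Their medians were 0.57 and 0.59, while those of all genes tested were -0.14 and -0.09. Counted by probe set, 4 of 17 were higher against Bmi1ΔIEC and 3 of 18 against Mel18ΔIEC, beside 6.91% and 4.19% of all probe sets. DKO read 3.44-fold higher than Bmi1ΔIEC and 3.57-fold higher than Mel18ΔIEC for Plaur. For Ereg, whose single-knockout values were under the floor, the size of the difference is not exact.

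The genes of the array with the pattern most like each called gene were found by the Euclidean distance between their 3 log2 differences from WT, over 4 arrays. Nearest to Ereg were Syt8, at a distance of 0.33, Emp1 at 0.42 and Epha2 at 0.54. The Ereg differences behind these distances include 3 arrays under the floor, so the ranking for Ereg is not exact. Emp1, an epithelial membrane protein, read 1571 on the array labelled DKO, 292 on Bmi1ΔIEC, 374 on Mel18ΔIEC and 755 on WT, all well above the floor. Epha2, an ephrin receptor, read 383, 87.5, 99.1 and 215 in that order. Nearest to Plaur were Wwc1 at 0.24, Hs3st1 at 0.25 and Adamts1 at 0.25. Nearest to F3 were Slc34a2 at 0.16, Cyp27a1 at 0.18 and Ppcs at 0.23.

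Around the receptor, 105 further genes in 10 lists covered other ligands, receptors, shedding, feedback, ERK response, the plasminogen and tissue factor systems, annexins, the Ly6 family and YAP. Of these, 95 had a probe set and 73 could be tested in each comparison. On the array labelled DKO 5 were called higher than WT and 1 lower, 6.85% and 1.37% of those tested, against 2.13% and 2.19% of all genes. On Bmi1ΔIEC 5 were called higher and 6 lower, 6.85% and 8.22%, against 5.76% and 2.86% of all genes. On Mel18ΔIEC 3 were called higher and 5 lower, 4.11% and 6.85%, against 3.15% and 2.5%. The medians were 0.11, -0.04 and 0.02, against -0.01, 0.13 and 0.07 over all genes tested.

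Among the 6 other ligands, of which 2 could be tested, Egf itself was called higher on both single-knockout arrays and was the only one called. It read 36.9 on the array labelled DKO, 83.9 on Bmi1ΔIEC, 90.1 on Mel18ΔIEC and 31.4 on WT, the last of these under the floor. Btc (betacellulin) read 132 on DKO and between 73.9 and 82.8 on the other 3, at 0.67 above WT. None of the 3 partner receptors was called, and Erbb3, the one that differed most, lay 0.51, 0.46 and 0.71 above WT on the arrays labelled DKO, Bmi1ΔIEC and Mel18ΔIEC. Of 9 shedding genes, Timp3, an inhibitor of ADAM17, was called higher on DKO at 1.52. Adam8 was called lower on Bmi1ΔIEC at -1.34, where it was under the floor, and Adam17 itself lay within 0.18 of WT on all 3 knockout arrays.

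Among the feedback inhibitors, Lrig1, which targets Egfr for degradation and marks stem cells, read 202 on the array labelled DKO, 737 on Bmi1ΔIEC, 633 on Mel18ΔIEC and 421 on WT, and was called lower on DKO at -1.06. With the mean over its probe sets Lrig1 was not called. Lrig3 was called higher on both single-knockout arrays at 1.26 and 1.19. Dusp6, a phosphatase induced by ERK that switches it off, read 1133 on DKO, 436 on Bmi1ΔIEC, 486 on Mel18ΔIEC and 946 on WT, and was called lower on Bmi1ΔIEC at -1.12. In all, 1 of 14 was called lower on DKO, 1 higher and 1 lower on Bmi1ΔIEC, and 1 higher on Mel18ΔIEC. Of 13 ERK response genes tested, Fosb was called higher on Bmi1ΔIEC at 1.20 and no other was called on any of the 3 arrays.

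Beside Plaur in the plasminogen system, Plat, the tissue plasminogen activator, read 584 on the array labelled DKO, 31.6 on Bmi1ΔIEC, 44.4 on Mel18ΔIEC and 159.5 on WT. It was called higher on DKO at 1.87 and lower on both single-knockout arrays at -2.33 and -1.85, the first of them from a value under the floor. Plau, which encodes urokinase, the ligand of the Plaur product, was under the floor on all 4 arrays. In the tissue factor pathway no gene was called against WT. Tfpi2, an inhibitor of the pathway's proteases, lay 0.73 above WT on each single-knockout array, where it read 49.9 and 49.8, and was under the floor on DKO and WT. F2r, the thrombin receptor, differed most among those tested on DKO, at 0.61.

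The annexin group held Anxa13, an annexin of enterocytes, which was called higher on all 3 knockout arrays at 2.15, 1.67 and 1.31. Anxa2 read 11638 on the array labelled DKO, 5427 on Bmi1ΔIEC, 5217 on Mel18ΔIEC and 10638 on WT, and was called lower on Mel18ΔIEC at -1.03. Anxa5 was called higher on Bmi1ΔIEC at 1.04. Fpr2, a receptor for annexin A1 that neutrophils and macrophages also carry, was called lower on both single-knockout arrays at -1.99 and -1.76, with both of those values under the floor. Of the other Ly6 genes, Ly6d alone was called, at -1.80 and -1.66 on the single-knockout arrays, with 0.90 on DKO.

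In the YAP and fetal-like repair list, Il33, an alarmin released from damaged barriers, read 182 on the array labelled DKO, 33.6 on Bmi1ΔIEC, 36.9 on Mel18ΔIEC and 27.5 on WT, a difference of 2.73 for DKO against a WT value under the floor. Il1rn, the interleukin 1 receptor antagonist, was called higher on DKO at 1.02. Cldn4, a tight junction claudin, was called lower on both single-knockout arrays at -2.23 and -1.79. Yap1 lay within 0.10 of WT on all 3 knockout arrays, and its widely used target Ccn2 differed by 0.51, -0.50 and -0.67. In all, 2 of 12 tested genes were called higher on DKO, and 1 of 11 lower on each single-knockout array.

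**Figure D4:**
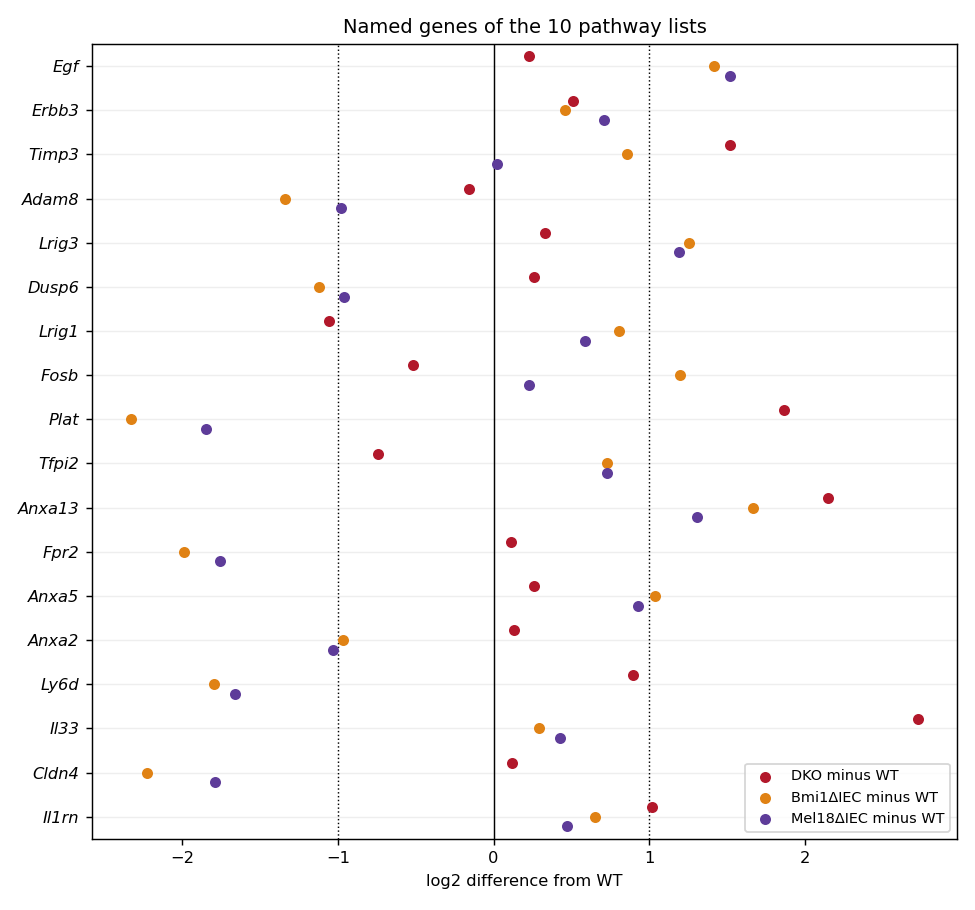
Log2 difference from the array labelled WT for the 18 named genes of the 10 pathway lists, 1 point per knockout array, with dotted lines at 2-fold. Plat and Ly6d lie below 0 on both single-knockout arrays and above 0 on the DKO-labelled array, at 1.87 and 0.90, while Egf and Lrig3 lie above 1 on the single-knockout arrays only.

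Markers of other cells moved with some of these genes, and their part in the results was not tested. Neutrophils and macrophages express Plaur, Anxa1 and Fpr2. The 9 neutrophil markers summed to 1970.4 intensity units on the array labelled DKO, 215 on Bmi1ΔIEC, 337 on Mel18ΔIEC and 2039 on WT, and 3 were called lower on each single-knockout array. S100a8 and S100a9 made up most of the sum on DKO and WT, and Cxcr2, Mmp8 and Camp were under the floor on every array. The 14 macrophage and monocyte markers summed to 4592, 2826, 2638 and 4396 in the same order, with 9 called lower on Bmi1ΔIEC and 3 on Mel18ΔIEC. Cd14 alone gave 1549 of the Bmi1ΔIEC sum and lay 0.37 above WT there. The median differences of the markers tested were -1.12 on Bmi1ΔIEC and -0.64 on Mel18ΔIEC. On the array labelled DKO none of either list was called against WT.

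Fibroblasts express F3, Clu and Timp3, and their 10 markers summed to 6351 on the array labelled DKO, 1859 on Bmi1ΔIEC, 4203 on Mel18ΔIEC and 4046 on WT. On the DKO-labelled array 1 of these markers was called higher, and on the Bmi1ΔIEC-labelled array 5 were called lower. T and NK cell markers summed to 2226, 765, 589 and 1143, with 4 of 12 called higher on DKO, 2 lower on Bmi1ΔIEC and 4 lower on Mel18ΔIEC. Smooth muscle and endothelial lists had none called on DKO or Mel18ΔIEC, with 1 endothelial marker higher on Bmi1ΔIEC, and all 4 mesothelial markers were under the floor on every array. B and plasma cell markers summed to 1906, 984, 913 and 1045, with 1 of 5 called higher on DKO. That marker was Jchain, at 1686 on DKO and 789 on WT, and the median difference of the 5 markers on DKO was -0.29. Of the epithelial markers, Krt20, a keratin of differentiated surface cells, was called lower on Bmi1ΔIEC at -1.29, and none was called on the other knockout arrays.

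**Figure D5:**
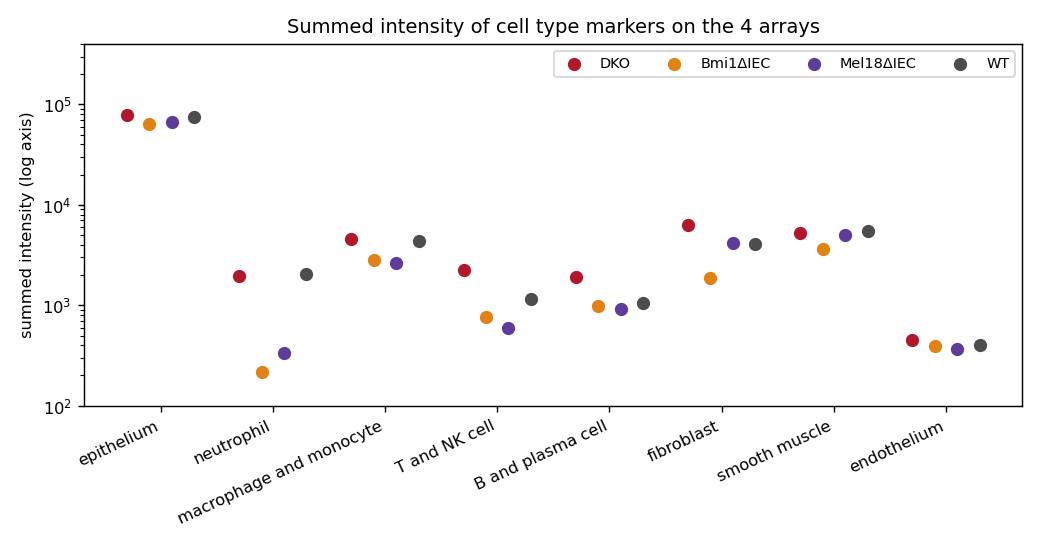
Summed intensity (log axis) of the markers of 8 cell types on the 4 arrays, 1 point per array. Neutrophil markers lie at 1970.4 on the array labelled DKO and 2039 on WT, against 215 on Bmi1ΔIEC and 337 on Mel18ΔIEC, whereas the epithelial sums stay between 63593 and 78465.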

How the data were processed

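Total RNA (200 ng) of colonic epithelial cells was labelled and hybridised to 4 arrays, 1 for each genotype. The deposited intensity values are probe-set summaries of the authors, for which the submitters' processing notes name RMA and Affymetrix Expression Console without a version. They lie on a linear scale from 3.25 to 22803, and no source used here says whether the arrays were normalised together. Log2 was taken with no pseudocount and no further scaling, with pandas 2.3.3 and numpy 2.4.6.

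Of 45037 probe sets 34945 had 1 gene symbol, 932 had several and 9160 were unnamed here. Symbols were updated through the gene identifier for 34741. The number of arrays limits the precision, and no p-value, SD or SE can be given. The size rule was checked on simulated arrays.

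The genes and lists were chosen with earlier results of these data known. Named were all 8 genes with every probe set, up to 4 called members of each pathway list or else the 1 that differed most, and 3 nearest genes for each called gene, passing over systematic names. Other values named in passing (Btc, Adam17, Plau, F2r, Yap1, Ccn2 and single markers) were chosen after their values were seen. Alternatives were the mean over probe sets, a floor at percentile 75 or none, arrays centred on their median or on that of genes reaching the floor, quantile normalisation, a 1.5-fold rule and dropping probe sets that can match several transcripts. Promoter windows are from RefSeq, GRCm38.p6.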

Additional observations from a re-analysis of the deposited data

Results flagged for a closer look

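For 5 of the 8 genes, Ereg, Plaur, Anxa1, Egfr and Tgfa, the difference that goes with the Mel18 label ran opposite ways with and without the Bmi1 label, and likewise the other way round. The share of all genes that do so is not given here. For Tgfa this rests on differences from WT of -0.01 and -0.07, which turned positive with each array centred on its median. The value given is how far the log2 difference of DKO from WT exceeded the sum of both single-knockout differences. It was 3.44 for Ereg, 2.50 for Plaur and 1.19 for Anxa1, against 0.43 for Egfr and 0.36 for Tgfa, and 8.7% of the 12154 genes at or above the floor had a value of at least 1. For Plaur, Mel18ΔIEC differed from WT by -0.72, while DKO exceeded Bmi1ΔIEC by 1.78. For Anxa1 the value was 2.33 by the mean over its probe sets and 3.47 by its dimmer probe set, 1444016_at. Its differences were -0.74 and 0.45 by the brighter one, and for Ereg, mostly under the floor, -1.09 and 2.34. With 1 array each the difference between the effects was not tested.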

How the results depend on the processing

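The called differences of Ereg, F3 and Plaur kept their direction under both centrings and quantile normalisation. Each of these genes has 1 probe set, so the other alternatives could not change its difference, only its call or its presence. With the floor at percentile 75 Ereg was no longer called, and DKO against each single-knockout array then counted 1 gene higher (Plaur) in place of 2. Leaving out probe sets that can match several transcripts removes Plaur and Clu, and both counts were again 1. Under the 1.5-fold rule 4 of the 8 genes were higher in each of these comparisons. Of all genes, 1187 of 11966 were then higher against Bmi1ΔIEC and 1024 of 11879 against Mel18ΔIEC. Against WT 1 of the 8 was lower on Bmi1ΔIEC by this rule, and 2 were higher and 2 lower on Mel18ΔIEC. For all genes these counts were 2128 higher and 899 lower of 11934 on Bmi1ΔIEC, and 1402 higher and 745 lower of 11862 on Mel18ΔIEC. On DKO they were 726 higher and 777 lower of 11853. With no floor 1 (Ereg) was lower on each single-knockout array, and with the mean over probe sets 1 (Clu, 1.05) was higher on Mel18ΔIEC. By that mean Clu was 1.12 above WT on DKO, and Anxa1 lay at 0.47 in place of -0.04, and Anxa1 joined Ereg and Plaur as higher on DKO than on Bmi1ΔIEC (1.36) and Mel18ΔIEC (1.45), 3 genes in each. Small differences of Hbegf, Tgfa and Clu on the single-knockout arrays changed sign with the centring, none above 0.22 in size. Of the 73 pathway genes tested, 11 were higher and 2 lower than WT on DKO under the 1.5-fold rule. On Bmi1ΔIEC 17 were higher and 10 lower, and on Mel18ΔIEC 14 and 13, beside the counts of all genes above. With the higher floor 3 were lower on each single-knockout array, with the mean over probe sets 0 were lower on DKO (Lrig1 lost its call), and centring arrays on genes that reach the floor left 3 higher on Bmi1ΔIEC. That centring moved the median of all genes tested on Bmi1ΔIEC from 0.13 to -0.12, and the share of called genes that were higher from 66.8% to 38.2%; centring on all probe sets gave 76.1%. On Mel18ΔIEC that share was 55.8%, and 36.6% with the first centring. For DKO against Bmi1ΔIEC it was 35.1%, and 61.4% with it, and against Mel18ΔIEC 45.9% and 62.8%. The cause was not tested. No paired analysis was possible because each genotype has 1 array, and no array could be left out.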

Other observations

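In assembly GRCm38.p6 Ereg lies in a run of ligand genes, with Epgn on one side and Areg and Btc on the other, and the chemokine gene Cxcl2 beyond Mthfd2l. These neighbours were looked at after the values of Ereg were known. Epgn (epigen) was under the floor on every array. Btc read 132 on the array labelled DKO, 73.9 on Bmi1ΔIEC, 82.1 on Mel18ΔIEC and 82.8 on WT, with DKO highest as for Ereg. Cxcl2, a chemokine for neutrophils, read 413 on DKO, 46.5 on Bmi1ΔIEC, 51.8 on Mel18ΔIEC and 836 on WT, and was called lower than WT on all 3, at -1.02, -4.17 and -4.01. Mthfd2l, a mitochondrial folate enzyme between them, read 133, 189, 124 and 115 in the order DKO, Bmi1ΔIEC, Mel18ΔIEC, WT and was not called.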
